A study of Danio rerio with 20 samples.

Results

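Antigen presentation shows fragments of a cell's proteins at its surface to T cells. In the class I route, the proteasome cuts proteins into peptides, the TAP transporter carries them into the endoplasmic reticulum, and they are loaded onto a class I heavy chain paired with beta-2-microglobulin. Interferons, the cytokines of the antiviral response, raise the expression of this machinery, and they replace the catalytic subunits of the standard proteasome by those of the immunoproteasome. In the class II route, peptides cut in lysosomes are loaded onto class II chains after the invariant chain (Cd74) has been removed, mostly in macrophages, B cells and dendritic cells.

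The 8 zebrafish genes described here were b2m, mhc1zba, tap1, psmb8a, psmb9a, psmb13a, ifi30a and cd74a, out of 32105 gene identifiers counted. They were found by symbol, and all 8 names matched 1 identifier each. The set was chosen by measured levels, since b2m and mhc1zba differed between the 2 lines, so the differences of these 2 genes between the lines are given as a description with no test. RNA with poly(A) tails was sequenced from livers dissected from larvae of 5 days post fertilization, and each library is a pool of 12 to 15 livers. The exposed as3mt mutant group (as3mt-/-) came from a CRISPR line whose as3mt gene lacks 8 bp within exon 3 on both alleles, with a premature stop codon, in the WT-ABNYU background, and was kept in 1 mM sodium arsenite from 96 to 120 hours post fertilization. The unexposed as3mt mutant group had the same genotype and 0 mM arsenite. The exposed wild-type group was of the TAB5 strain with 1 mM arsenite, and the unexposed wild-type group was TAB5 with 0 mM. As3mt methylates inorganic arsenic. Since the mutants and the wild types came from different strains, mutation and strain cannot be told apart, and each genotype difference below is a difference between these 2 lines.

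Each group had 5 libraries, and total counts per library ran from 25406597 to 42047561. Levels are in CPM, counts relative to library size, after scaling by the trimmed mean of M-values (TMM), and changes are log2 fold changes from edgeR's quasi-likelihood test with Benjamini-Hochberg adjustment over 16389 genes, called where the adjusted p was under 0.05. The libraries carried the liver's markers: 39 hepatocyte genes summed to 59140 to 88840 CPM in exposed mutants, 310200 to 347400 CPM in unexposed mutants, 104300 to 178500 CPM in exposed wild types and 373300 to 399600 CPM in unexposed wild types. In bulk RNA, fewer cells of a type and less RNA per cell cannot be told apart. as3mt itself averaged 13.1 ± 4.21 CPM in exposed mutants, 72.7 ± 9.30 in unexposed mutants, 45.9 ± 18.4 in exposed wild types and 125 ± 7.09 in unexposed wild types (SD, n = 5 each), and a deletion of this size leaves the transcript countable. Scaling by total counts in place of TMM moved the median change of all genes from -0.002 to 0.83 for arsenite in mutants and from 0.033 to 0.75 in wild types, so arsenite changes below are relative to the median gene. Of the called genes, 83.4% in mutants and 88.1% in wild types were then higher with arsenite, against 51% and 53.8% under TMM. Total-count scaling thus called 9842 of the 16389 genes higher and 1962 lower in mutants, and 9740 higher and 1313 lower in wild types.

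With arsenite, the transcripts of the light chain, the peptide transporter and 2 immunoproteasome subunits rose in both lines, while the heavy chain mhc1zba did not pass the test in either. In mutants b2m, tap1 and ifi30a were called higher, where 31.5% of all genes tested were. In wild types b2m and tap1 were called higher, where 28.7% of all genes tested were. psmb9a and psmb13a were also called higher in both lines, but 0 of the 10 unexposed libraries reached the filter's level of 0.29 CPM for either gene, so they were tested only because of their exposed libraries and had to differ. Between the lines, mhc1zba and ifi30a were higher in mutants at both exposures, and b2m was higher in unexposed mutants than in unexposed wild types. Of these differences only that of ifi30a was tested, since b2m and mhc1zba were chosen for theirs. psmb8a and cd74a had too few counts for the filter of the main test.

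**Figure D1:**
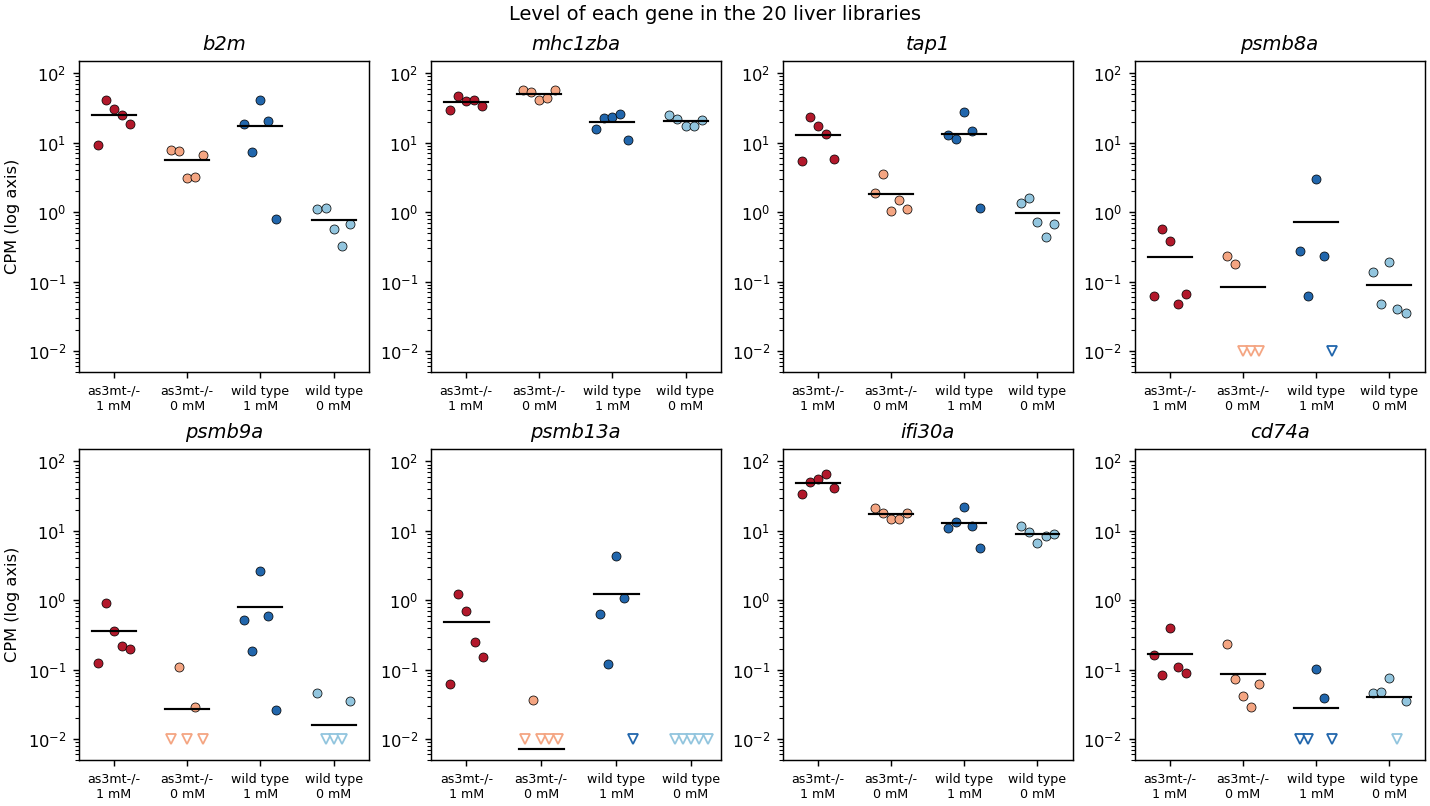
Each point is the level of a gene in 1 library, in CPM on a log axis, and each bar is the mean of 5 libraries. The 4 groups stand side by side for each of the 8 genes, and libraries at 0 are drawn as triangles at the bottom. For b2m, tap1, psmb9a and psmb13a the exposed wild types spread most widely, with replicate 5 among or near the unexposed libraries. mhc1zba separates by genotype, and ifi30a does so among libraries of the same exposure. In mutants, ifi30a also separates by exposure.

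b2m (ENSDARG00000053136) encodes beta-2-microglobulin, the invariant light chain that class I heavy chains need to fold and reach the surface. Its level was 9.41, 40.9, 30.8, 24.9 and 18.4 CPM in the exposed mutants and 7.85, 7.61, 3.10, 3.25 and 6.65 CPM in the unexposed mutants. It was 18.5, 7.47, 41.1, 20.3 and 0.795 CPM in the exposed wild types and 1.1, 1.15, 0.569, 0.323 and 0.667 CPM in the unexposed wild types. Every exposed mutant was above every unexposed mutant, whereas exposed wild-type replicate 5 lay within the range of the unexposed wild types and the other exposed wild types lay above it. Non-overlap with the exposed libraries higher was met by 25.1% of all genes tested in mutants and by 18.7% in wild types.

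Arsenite raised b2m by 2.13 ± 0.60 log2 units in mutants (SE, edgeR adjusted p = 0.0044) and by 4.55 ± 0.72 in wild types (adjusted p = 2.3e-05). Without exposed wild-type replicate 5 the wild-type change was 4.83, and without replicate 3 it was 3.97. Between the lines, without arsenite, b2m averaged 5.69 ± 2.34 CPM in mutants and 0.762 ± 0.355 CPM in wild types (SD, n = 5 each). This was a log2 difference of 2.92, with all mutants above all wild types, as for 4.44% of all genes tested. With arsenite the means were 24.9 ± 12.0 CPM in mutants and 17.6 ± 15.4 CPM in wild types, a log2 difference of 0.49 with overlapping libraries. That last difference was 0.21 without exposed wild-type replicate 5 and 1.08 without replicate 3. Of the 4 group levels of b2m, the 2 exposed groups came highest and did not separate from each other, the unexposed mutants came next, and the unexposed wild types were lowest. The response of b2m in mutants minus that in wild types was -2.42 on the log2 scale, which follows from the same values that chose the gene and was not tested.

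mhc1zba (ENSDARG00000036588) is a class I heavy chain gene of the Z lineage of fish. It had 29.3, 47.7, 40.5, 41.1 and 33.8 CPM in exposed mutants and 58.3, 54.2, 41.1, 43.5 and 58.0 CPM in unexposed mutants. In exposed wild types it had 15.6, 22.5, 23.2, 26.2 and 10.8 CPM, and in unexposed wild types 24.7, 21.9, 17.2, 17.3 and 21.2 CPM. All 10 mutant libraries were above all 10 wild-type libraries, and within each line the exposed and unexposed libraries overlapped. All mutants were above all wild types for 6.66% of all genes tested with arsenite and for 4.44% without. As mhc1zba was chosen for its difference between the lines, this separation is no independent result.

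The log2 difference of mhc1zba between mutants and wild types was 0.97 with arsenite and 1.32 without, and is a description only. Means were 38.5 ± 7.11 CPM in exposed mutants against 19.7 ± 6.28 in exposed wild types, and 51.0 ± 8.16 CPM in unexposed mutants against 20.5 ± 3.19 in unexposed wild types (SD, n = 5 each). Arsenite changed it by -0.41 ± 0.19 in mutants (edgeR adjusted p = 0.0726) and by -0.06 ± 0.19 in wild types (adjusted p = 0.825). The mutant change was past the threshold without exposed mutant replicate 2 (-0.49, adjusted p = 0.0429), with exposed wild-type replicate 5 left out (-0.42, adjusted p = 0.0217) and in a fit of the 2 mutant groups alone (-0.41, adjusted p = 0.028). Under total-count scaling its signs turned, to 0.44 in mutants and 0.68 in wild types (adjusted p = 0.00777), both below the shift of the median gene.

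Among 19 class I heavy chain and b2m-like genes that matched an identifier, 12 were tested, b2m and mhc1zba not being among them. With arsenite, 3 rose and 3 fell in mutants, where 31.5% and 30.3% of all genes tested did. In wild types 4 rose and 1 fell, where 28.7% and 24.6% of all genes tested did. The single fall in wild types was lost without exposed or unexposed replicate 3. Under total-count scaling 7 rose and 1 fell in mutants and 6 rose and 0 fell in wild types. Over all 16389 genes, that scaling called 9842 higher and 1962 lower in mutants, and 9740 higher and 1313 lower in wild types. Median changes under TMM were 0.25 in mutants and -0.15 in wild types, against -0.002 and 0.03 over all genes tested. Of the genes that rose, 2 in each line passed the filter only through exposed libraries, mhc1uba among them. Such calls with arsenite are no independent result. mhc1uba, a U lineage heavy chain gene, changed most. Its level was 1.03, 43.3, 25.2, 23.4 and 0.616 CPM in exposed mutants and 23.5, 1.78, 46.7, 11.4 and 0.159 CPM in exposed wild types. All unexposed libraries held at most 0.614 CPM. Exposed wild-type replicate 5 lay within the unexposed range and exposed mutant replicate 5 barely above it, exposed mutant replicate 1 and exposed wild-type replicate 2 were above it at 1.03 and 1.78 CPM, and the other 6 exposed libraries held at least 11.4 CPM. The log2 change was 5.93 in mutants (edgeR adjusted p = 0.00047) and 5.91 in wild types (adjusted p = 0.00078), and 5.05 in wild types without replicate 3 (adjusted p = 0.0025). mhc1zea, another Z lineage gene, rose by 2.07 in mutants (edgeR adjusted p = 2.3e-07) and by 1.31 in wild types (adjusted p = 7.5e-05). All 5 exposed libraries of each line lay above all 5 unexposed libraries. Such non-overlap was met by 25.1% of all genes tested in mutants and by 18.7% in wild types.

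Between the lines, 1 of these 12 genes was higher and 5 were lower in mutants with arsenite, where 7.68% and 12.9% of all genes tested were. Without arsenite the counts were again 1 and 5, where 5.91% and 7.91% of all genes tested were. The filter bears on these counts: mhc1zja reached its level only in mutant libraries, and mhc1zka and mhc1zfa only in wild-type libraries. mhc1zca would not have passed without its wild types. The counts are therefore no independent result about class I genes. mhc1zja was the gene that was higher: it averaged 1.3 CPM in exposed mutants against 0.071 in exposed wild types and 0.705 CPM in unexposed mutants against 0.088 in unexposed wild types, log2 differences of 4.12 (edgeR adjusted p = 9.6e-06) and 3.02 (adjusted p = 0.0011). Without unexposed wild-type replicate 2 the unexposed difference was 3.73. Wild-type libraries held at most 0.240 CPM of mhc1zja, under the filter's level of 0.29 CPM. The gene was thus tested only because of its mutant libraries, and these p-values are no independent result. mhc1zka had 0 counts in exposed mutants against 123 in exposed wild types, so it was at least 57.3-fold lower over a floor of 3 counts for the group. It had 1 count in unexposed mutants against 117 in unexposed wild types. mhc1zca had 0 counts in unexposed mutants against 61 in unexposed wild types, at least 23.4-fold lower over the same floor, and 38 counts in exposed mutants against 87 in exposed wild types. mhc1zfa had 6 counts in exposed mutants against 156 in exposed wild types and 3 in unexposed mutants against 34 in unexposed wild types.

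mhc1zda averaged 0.261 CPM in exposed mutants and 2.06 in exposed wild types, a log2 difference of -2.96 (edgeR adjusted p = 2.1e-06), and 1.2 CPM in unexposed mutants and 2.73 in unexposed wild types, a difference of -1.18 (adjusted p = 0.0126). Its arsenite response was lower in mutants by -1.78 (adjusted p = 0.0254), and this call was lost without exposed mutant replicate 3, unexposed mutant replicate 3, or exposed wild-type replicate 2 or 3 (adjusted p from 0.0501 to 0.0547). mhc1zea was lower in unexposed mutants by -1.04 (adjusted p = 0.0058) but did not pass the test with arsenite (-0.28, adjusted p = 0.425). Class I genes form a multigene family whose sequences differ between strains, and how reads matching several copies were counted is not given in the sources used here, so the level of each single class I gene is uncertain. In the RefSeq annotation of GRCz12tu, a later assembly than the one counted on, mhc1zba and mhc1zca were direct neighbours among protein-coding genes, and 262 protein-coding genes lay between mhc1zba and as3mt on the same chromosome. Whether the DNA around as3mt in the mutant line bears on the class I differences was not tested.

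**Figure D2:**
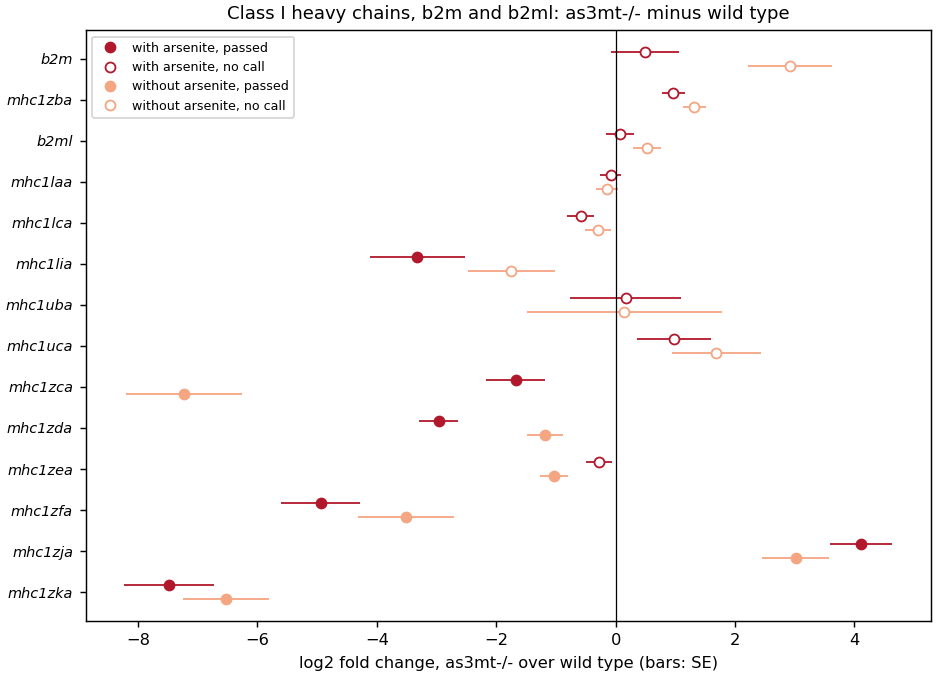
Log2 differences between as3mt mutants and wild types for b2m, mhc1zba and the tested class I genes, with bars of 1 SE, with arsenite and without it; filled points passed the edgeR threshold and open points did not or were not tested. mhc1zja stands at 4.12 and 3.02, while mhc1zka, mhc1zfa, mhc1zda and mhc1zca stand below 0; the fitted values of genes at 0 counts in a group depend on the fit's prior count and are no bounds.

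tap1 (ENSDARG00000079766, listed as TAP1) encodes a chain of the transporter that moves peptides into the endoplasmic reticulum. It had 5.37, 23.6, 17.4, 13.5 and 5.79 CPM in exposed mutants and 1.89, 3.53, 1.03, 1.49 and 1.1 CPM in unexposed mutants. In exposed wild types it had 13, 11.4, 27.5, 14.5 and 1.14 CPM, and in unexposed wild types 1.37, 1.59, 0.721, 0.444 and 0.667 CPM. As for b2m, the mutant groups did not overlap, and exposed wild-type replicate 5 was the single exposed wild-type library inside the unexposed range. Exposed mutants were all above unexposed mutants for 25.1% of all genes tested.

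Arsenite raised tap1 by 2.86 ± 0.59 log2 units in mutants (SE, edgeR adjusted p = 0.0003) and by 3.84 ± 0.64 in wild types (adjusted p = 4.1e-05). The lines did not differ past the threshold with arsenite (-0.04 ± 0.53, adjusted p = 0.970) or without it (0.94 ± 0.64, adjusted p = 0.357), nor did the responses (-0.98 ± 0.83, adjusted p = 0.579). With arsenite the means were 13.1 ± 7.77 CPM in mutants and 13.5 ± 9.42 CPM in wild types, and without it 1.81 ± 1.02 CPM in mutants and 0.958 ± 0.492 CPM in wild types (SD, n = 5 each). A p above the threshold does not show that the lines were alike.

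The other 15 genes of peptide transport and loading were all tested. With arsenite, 5 rose and 5 fell in mutants, shares near the 31.5% and 30.3% of all genes tested, and 8 rose and 2 fell in wild types, where 28.7% and 24.6% of all genes did, with medians of 0.71 and 1.27. Of the genes that rose, tap2a and erap2 passed the filter only through exposed libraries, so their calls with arsenite are no independent result. In mutants 8 rose without exposed mutant replicate 1 or exposed wild-type replicate 3 or 5, and in wild types 4 fell without unexposed replicate 5 or exposed replicate 2. Under total-count scaling 9 rose and 2 fell in mutants and 11 rose and 0 fell in wild types. Over all 16389 genes, that scaling called 9842 higher and 1962 lower in mutants, and 9740 higher and 1313 lower in wild types. tap2a, the partner chain of Tap1, had 412 counts in exposed mutants and 0 in unexposed mutants, at least 71.4-fold higher over the group floor of 3 counts (edgeR adjusted p = 0.0021). In wild types it had 567 counts with arsenite and 11 without, a log2 change of 4.90 (adjusted p = 0.0051) that was 3.78 without exposed replicate 3. Its exposed wild-type replicate 5 held 0 counts. erap2, an aminopeptidase that trims peptides in the endoplasmic reticulum, rose by 4.01 in mutants (adjusted p = 0.00045) and by 5.85 in wild types (adjusted p = 6.7e-05). Its wild-type change was 5.11 without exposed replicate 3 and 6.91 without unexposed replicate 1.

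tapbp.2, a tapasin gene whose product bridges TAP and the class I chain, rose by 2.06 in mutants (edgeR adjusted p = 0.0031) and by 2.72 in wild types (adjusted p = 0.0005), and by 2.06 in wild types without replicate 3. The calreticulin genes CALR and calr3a, chaperones of the endoplasmic reticulum, went the other way, and kept their signs but not their wild-type calls under total-count scaling. CALR, calreticulin, averaged 31.1 CPM in exposed mutants and 100 CPM in unexposed mutants (-1.69, adjusted p = 5.0e-05), and 71.4 CPM in exposed wild types and 136 CPM in unexposed wild types (-0.94, adjusted p = 0.0105). calr3a fell by 1.48 in mutants (adjusted p = 2.7e-05) and by 0.95 in wild types (adjusted p = 0.0026). LNPEP, an aminopeptidase of endosomes, changed by -0.64 in mutants (adjusted p = 0.00046) and by -0.33 in wild types (adjusted p = 0.0517), and under total-count scaling the mutant value was 0.2. Between the lines, with arsenite, 5 of the 15 genes were lower in mutants and 0 were higher, where 12.9% and 7.68% of all genes tested were: CALR (-1.2), calr3a (-1.02), calr3b (-1.52), PDIA3 (-1.08) and CANX (-0.35), of which calr3b, PDIA3 and CANX were named after their values were seen. CANX, calnexin, passed narrowly (edgeR adjusted p = 0.0496) and was lost in most fits without 1 library, with an adjusted p up to 0.177 without exposed wild-type replicate 5.

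The 3 immunoproteasome subunits had far fewer counts than the standard subunits. Whether sequence differences between the strains and the counted assembly bear on these counts was not tested. psmb8a (ENSDARG00000001303, listed as PSMB8), the counterpart of Psmb5, had a total of 64 counts over 5 libraries in exposed mutants against 10 in unexposed mutants, and 144 in exposed wild types against 11 in unexposed wild types. Of the 144, exposed wild-type replicate 3 held 121, at 3.05 CPM, and the other 4 exposed wild types held at most 0.276 CPM. In a fit with no filter beyond 1 count the change was 1.61 ± 1.19 in mutants (SE, edgeR adjusted p = 0.307) and 2.99 ± 1.16 in wild types (adjusted p = 0.051). The wild-type change was 0.67 without exposed replicate 3 (adjusted p = 0.634) and 3.25 without exposed replicate 5 (adjusted p = 0.0201). The ratio of pooled CPM was 3.33 in mutants (95% exact interval 1.70 to 7.27) and 8.27 in wild types (4.49 to 16.9), and these intervals cover counting error only.

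psmb9a (ENSDARG00000000656, listed as PSMB9), the counterpart of Psmb6, had 0.123, 0.923, 0.363, 0.222 and 0.198 CPM in exposed mutants and 0, 0.108, 0, 0.0287 and 0 CPM in unexposed mutants. In exposed wild types it had 0.520, 0.184, 2.65, 0.590 and 0.0265 CPM, and in unexposed wild types 0.0456, 0, 0, 0 and 0.0351 CPM. The mutant groups did not overlap, as for 25.1% of all genes tested with exposed mutants higher. The wild-type groups overlapped through exposed replicate 5. Arsenite raised it by 3.55 ± 1.1 in mutants (SE, edgeR adjusted p = 0.0085) and by 5.34 ± 1.2 in wild types (adjusted p = 0.00084). The mutant change was 2.85 without exposed mutant replicate 2 and 4.94 without unexposed mutant replicate 2. The wild-type change was 4.09 without exposed wild-type replicate 3, and all 3 were past the threshold. As psmb9a passed the filter only through exposed libraries, these calls are no independent result. In total counts it had 104 in exposed mutants against 4 in unexposed mutants, and 159 in exposed wild types against 2 in unexposed wild types.

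psmb13a (ENSDARG00000001656), the counterpart of Psmb7, had 0.0615, 1.22, 0.707, 0.253 and 0.154 CPM in exposed mutants, and in unexposed mutants a single count in replicate 2 (0.0361 CPM). In exposed wild types it had 0.643, 0.122, 4.31, 1.08 and 0 CPM, and it had 0 counts in all 5 unexposed wild types. Over the group floor of 3 counts it was at least 52.9-fold higher in exposed than in unexposed wild types, where a fitted fold would depend on the prior count (edgeR adjusted p = 0.0016). In mutants, 137 counts with arsenite against 1 without gave a ratio of pooled CPM of 71.2 (95% exact interval 12.6 to 2832, edgeR adjusted p = 0.0095). Leaving out exposed wild-type replicate 3, or either replicate 2 of the mutants, moved the fitted change by more than 1.5-fold. The adjusted p was 0.0043 without the wild-type library, and 0.0254 and 0.026 without the exposed and the unexposed mutant library. As psmb13a passed the filter only through exposed libraries, these p-values are no independent result.

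No genotype difference passed the edgeR threshold for psmb9a or psmb13a. With arsenite it was -1.1 ± 0.75 for psmb9a (adjusted p = 0.329) and -1.35 ± 0.94 for psmb13a (adjusted p = 0.345). These values were 0.14 and 0.04 when exposed wild-type replicate 3 was left out. In the GRCz12tu annotation psmb8a, psmb13a, psmb12 and psmb9a followed each other with 0 other protein-coding genes between neighbours, with mhc1uba next to psmb8a and tap2a next to psmb9a. All of these except psmb8a were called higher with arsenite in both lines. Of all genes tested, 31.5% were called higher in mutants and 28.7% in wild types. Each of the called neighbours passed the filter only through exposed libraries, so these calls are no independent result about this stretch of genes. psmb12, also an immunoproteasome-type subunit gene, averaged 0.383 CPM in exposed mutants against 0.071 in unexposed mutants and 1.14 CPM in exposed wild types against 0.0318 in unexposed wild types. Its log2 change was 2.29 in mutants (adjusted p = 0.0351), lost without any of 5 single mutant libraries (exposed replicates 2 and 3, unexposed replicates 1, 3 and 4, adjusted p from 0.0568 to 0.0861), and 4.99 in wild types (adjusted p = 0.00045), which was 4.22 without exposed wild-type replicate 3.

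Most activators and assembly factors of the proteasome rose. Of 9 tested, 7 rose and 0 fell in each line, where 31.5% of all genes tested rose in mutants and 28.7% in wild types, with medians of 2.06 in mutants and 1.59 in wild types against -0.002 and 0.03 over all genes tested. The list from which they come also held psmb12 and PSMB10, a catalytic subunit gene that rose by 2.02 in wild types (edgeR adjusted p = 0.0145) and changed by 1.06 in mutants (adjusted p = 0.151), at means of at most 1.33 CPM. PSME1 and PSME2 encode the PA28 cap, which interferon induces in mammals. PSME1 averaged 39.7 CPM in exposed mutants and 6.58 in unexposed mutants (2.59, edgeR adjusted p = 4.8e-06), and 34.1 CPM in exposed wild types and 5.5 in unexposed wild types (2.64, adjusted p = 7.4e-06). PSME2 had 9.41, 35.5, 26.9, 20.5 and 16.3 CPM in exposed mutants and 25.3, 13, 68.8, 26.5 and 3.42 CPM in exposed wild types, with means of 4.39 CPM in unexposed mutants and 2.86 CPM in unexposed wild types. Its highest and lowest exposed wild types were again replicates 3 and 5.

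The PSME2 change was 2.31 in mutants (edgeR adjusted p = 0.0035), or 3.01 without unexposed mutant replicate 2, and 3.28 in wild types (adjusted p = 0.00033), or 2.6 without exposed replicate 3. A copy of PSME4, the PA200 activator (ENSDARG00000087911), rose by 3.55 in mutants (adjusted p = 3.6e-05) and by 3.77 in wild types (adjusted p = 4.6e-05), while the other copy (ENSDARG00000018742) changed by 0.12 and 0.23 and did not pass. The assembly factor POMP rose by 1.99 in mutants (adjusted p = 4.2e-11) and by 1.59 in wild types (adjusted p = 2.5e-09). PSMG1 and PSMG2, chaperones of core assembly, rose by 2.41 (adjusted p = 9.0e-09) and 2.06 (adjusted p = 2.4e-11) in mutants and by 1.78 (adjusted p = 9.9e-07) and 1.48 (adjusted p = 5.6e-09) in wild types. These 2 were also higher in mutants than in wild types with arsenite, PSMG1 by 0.78 (adjusted p = 0.0108) and PSMG2 by 0.55 (adjusted p = 0.0017). PSME3, the PA28 gamma activator, rose by 1.35 in mutants (adjusted p = 2.7e-09) and by 1.09 in wild types (adjusted p = 1.3e-07).

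**Figure D3:**
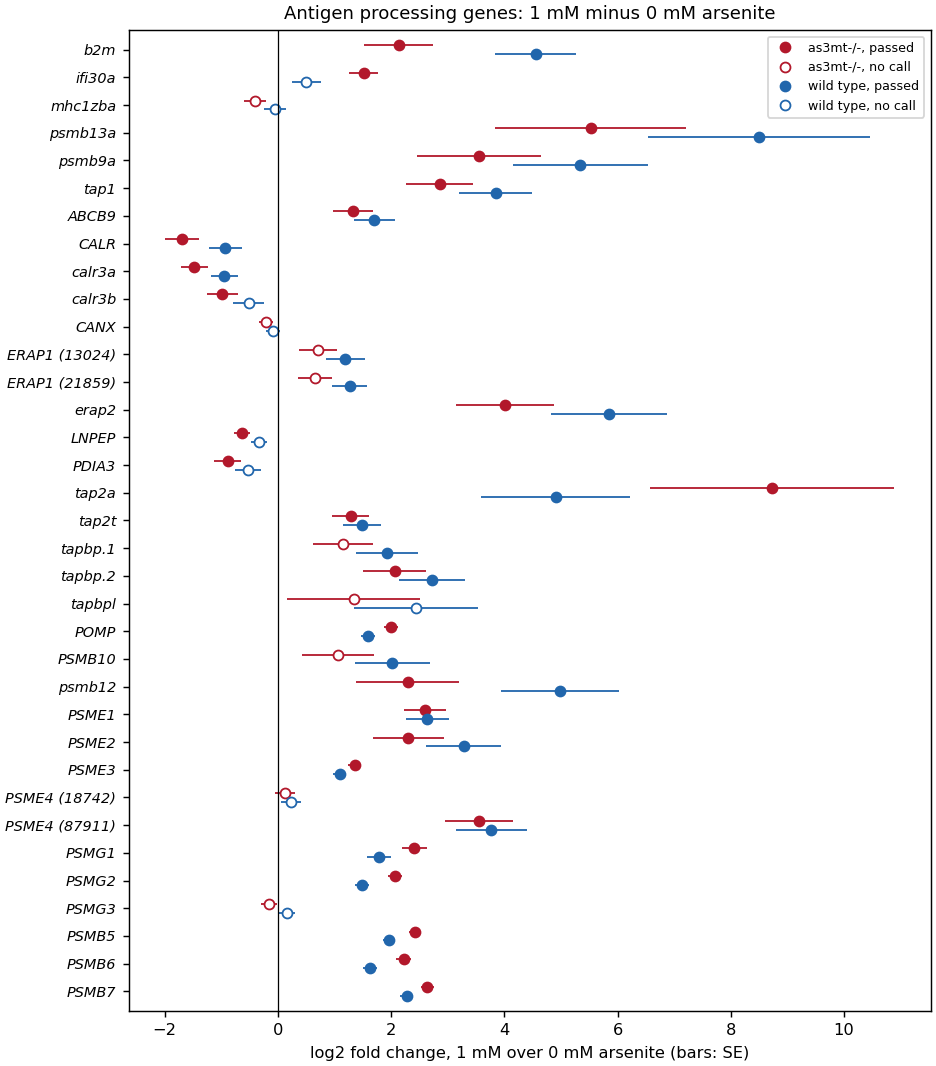
Log2 changes with arsenite, with bars of 1 SE, for genes of peptide transport and loading, the immunoproteasome and its activators, and the standard catalytic subunits, in as3mt mutants and in wild types; filled points passed the edgeR threshold. The standard subunits lie between 1.63 and 2.64 with short bars, tap1, tap2a, erap2, psmb9a and psmb13a lie higher with longer bars, and CALR lies below 0; numbers in brackets are the last digits of the identifier where 2 identifiers share a symbol. Fitted values of genes at 0 counts in a group (psmb13a, tap2a) are no bounds.

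The standard catalytic subunits that psmb8a, psmb9a and psmb13a replace were abundant and rose evenly. PSMB5 had 262 to 317 CPM in exposed mutants against 46.8 to 57.9 CPM in unexposed mutants, and 238 to 287 CPM in exposed wild types against 56.0 to 77.7 CPM in unexposed wild types. Its change was 2.42 in mutants (edgeR adjusted p = 4.3e-13) and 1.96 in wild types (adjusted p = 1.9e-11). PSMB6 rose by 2.22 in mutants (adjusted p = 2.3e-11) and by 1.63 in wild types (adjusted p = 3.8e-09), and PSMB7 by 2.64 (adjusted p = 4.0e-13) and 2.27 (adjusted p = 6.9e-12). In exposed wild-type replicate 5, where b2m and tap1 lay in the unexposed range, PSMB5 stood at 254 CPM, PSMB6 at 110 CPM and PSMB7 at 298 CPM, all above every unexposed wild type. Of the 16 standard subunits of the proteasome core, all 16 rose in both lines, under TMM and under total-count scaling. Over all genes tested, 31.5% rose in mutants and 28.7% in wild types under TMM. Total-count scaling called 9842 of 16389 genes higher in mutants and 9740 in wild types. The medians of the 16 under TMM were 2.19 in mutants and 1.66 in wild types. The alpha-ring gene PSMA3 rose by 2.44 in mutants (edgeR adjusted p = 4.3e-13) and by 1.94 in wild types (adjusted p = 2.4e-11). PSMA2, also of the alpha ring, rose by 2.2 in mutants (adjusted p = 3.7e-13) and by 1.62 in wild types (adjusted p = 5.3e-11), and its response was larger in mutants by 0.58 (adjusted p = 0.016).

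Ratios of each immunoproteasome subunit to its standard counterpart within a library were compared on the log2 scale after adding 0.5 counts, in 12 exact 2-sided permutation tests of 5 against 5 libraries. psmb9a over PSMB6 averaged -9.11 ± 0.98 in exposed mutants and -10.04 ± 1.18 in unexposed mutants, and -8.62 ± 2.11 in exposed wild types and -10.5 ± 0.74 in unexposed wild types (SD, n = 5 each). The wild-type difference of 1.9 had the smallest p of the 12 (exact p = 0.119, adjusted p = 0.667), and all 12 pairs of groups overlapped. psmb8a over PSMB5 differed by -0.78 with arsenite in mutants (exact p = 0.524) and by -0.995 in wild types (exact p = 0.5), and psmb13a over PSMB7 by 1.13 in mutants (exact p = 0.198) and 1.83 in wild types (exact p = 0.198). The smallest p this design allows is 0.00794. Without exposed wild-type replicate 5 the wild-type differences of psmb9a over PSMB6 and psmb13a over PSMB7 were 2.6 and 2.96 (exact p = 0.0317 each, not adjusted). Without unexposed mutant replicate 2 the mutant difference of psmb9a over PSMB6 was 1.37 (exact p = 0.0476, not adjusted). With 5 counts added in place of 0.5, the differences with arsenite for these 2 ratios turned negative in both lines, so at these counts the direction depends on the value added. In mutants the differences were then -1.27 for psmb9a over PSMB6 (exact p = 0.0238), -1.44 for psmb13a over PSMB7 (exact p = 0.0397) and -2.31 for psmb8a over PSMB5 (exact p = 0.00794), not adjusted.

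ifi30a (ENSDARG00000056378) encodes a lysosomal thiol reductase that opens disulfide bonds of antigens, known in mammals as GILT and as an interferon-gamma target. Its level was 34.2, 49.8, 55.6, 66.8 and 41.3 CPM in exposed mutants and 21.0, 18.3, 14.7, 14.9 and 17.9 CPM in unexposed mutants. It was 11, 13.6, 22, 11.7 and 5.59 CPM in exposed wild types and 11.6, 9.47, 6.71, 8.47 and 8.92 CPM in unexposed wild types. All exposed mutants were above all other libraries, all unexposed mutants were above all unexposed wild types, and the 2 wild-type groups overlapped. Exposed mutants were all above unexposed mutants for 25.1% of all genes tested.

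The genotype difference of ifi30a, unlike that of b2m, was not among the reasons given for the set, and it was tested. The gene was nevertheless chosen with earlier results of these data known, so its p-values are not free of selection. It was higher in mutants by 1.96 ± 0.25 with arsenite (SE, edgeR adjusted p = 1.4e-05) and by 0.94 ± 0.25 without (adjusted p = 0.0166), where 7.68% and 5.91% of all genes tested were called higher and where 6.66% and 4.44% had all mutant libraries above all wild types. The difference without arsenite was 0.85 and no longer past the threshold without unexposed wild-type replicate 3 (adjusted p = 0.0522). Arsenite raised ifi30a by 1.52 ± 0.25 in mutants (adjusted p = 2.7e-05) and changed it by 0.50 ± 0.25 in wild types (adjusted p = 0.102). The wild-type change was past the threshold without exposed wild-type replicate 5 (0.65, adjusted p = 0.0141) and under total-count scaling (1.24, adjusted p = 0.00049). The response in mutants exceeded that in wild types by 1.01 ± 0.35 (adjusted p = 0.116), where 1.31% of all genes tested were called higher. That difference was past the threshold in DESeq2 (1.05, adjusted p = 0.0435), and in edgeR when exposed wild-type replicate 3 was left out (1.3, adjusted p = 0.0274).

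cd74a (ENSDARG00000009087) encodes an invariant chain of class II. It was barely counted: 45 counts in exposed mutants, 11 in unexposed mutants, 6 in exposed wild types and 5 in unexposed wild types, each over 5 libraries. Its mean was 0.169 CPM in exposed mutants, 0.0880 in unexposed mutants, 0.0280 in exposed wild types and 0.0409 in unexposed wild types. With no filter beyond 1 count, the log2 difference between mutants and wild types with arsenite was 2.39 ± 0.81 (SE, edgeR adjusted p = 0.0559), and arsenite changed it by 1.04 in mutants (adjusted p = 0.296) and by -0.38 in wild types (adjusted p = 0.839).

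Its paralogue cd74b had more counts, most of them in exposed libraries. It had 1.17, 4.63, 1.36, 3.20 and 0.682 CPM in exposed mutants and 3.43, 4.77, 5.04, 3.05 and 0.106 CPM in exposed wild types, against at most 0.216 CPM in unexposed mutants and 0.597 CPM in unexposed wild types. The change was 4.03 in mutants (edgeR adjusted p = 0.00016) and 3.50 in wild types (adjusted p = 0.00042), with exposed wild-type replicate 5 again at the unexposed level. Of 8 tested genes of class II presentation, 5 rose and 1 fell in mutants, where 31.5% and 30.3% of all genes tested did, and 4 rose and 1 fell in wild types, where 28.7% and 24.6% did, or 2 fell without unexposed wild-type replicate 4 or 5. cd74b and mhc2dbb, 2 of those that rose in each line, passed the filter only through exposed libraries, so their rises are no independent result. Under total-count scaling 6 rose in mutants, 5 rose in wild types and 0 fell in either. Over all 16389 genes, that scaling called 9842 higher and 1962 lower in mutants, and 9740 higher and 1313 lower in wild types. The cathepsin S genes ctss2.1 and ctss2.2, whose products cut the invariant chain in mammals, rose in both lines: ctss2.1 by 2.16 in mutants (adjusted p = 0.0114) and 1.72 in wild types (adjusted p = 0.0404), and ctss2.2 by 1.17 in mutants (adjusted p = 0.0344) and 1.74 in wild types (adjusted p = 0.0042). The wild-type call of ctss2.1 was lost without any of 5 single wild-type libraries, down to 1.2 without exposed replicate 3 (adjusted p = 0.153), and was 2.66 without unexposed replicate 1. The mutant call of ctss2.2 was lost without any of 5 single mutant libraries, down to 0.86 without exposed replicate 2 (adjusted p = 0.121). The class II chain gene mhc2dbb was higher in exposed mutants than in exposed wild types by 3.10 (adjusted p = 0.00075), at means of 0.463 and 0.0495 CPM. It reached the filter's level only in the exposed mutants, so this call is no independent result. LGMN, the lysosomal protease legumain, averaged 150 CPM in exposed mutants and 42.6 in unexposed mutants (1.82, adjusted p = 0.0013), and 133 CPM in exposed wild types and 122 in unexposed wild types (0.13, adjusted p = 0.819), whose libraries ran from 41.2 to 375 CPM. Without unexposed wild-type replicate 4 the wild-type change was 1.18 (adjusted p = 9.9e-05). ctsla, a cathepsin L gene, fell by 0.5 in mutants (adjusted p = 0.0076) and by 0.65 in wild types (adjusted p = 0.0012), and under total-count scaling these values were 0.35 and 0.08.

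Regulators of these routes gave a mixed picture. Of 23 tested interferon and MHC regulators, 5 rose and 5 fell in mutants and 5 rose and 6 fell in wild types, shares below the 31.5% and 30.3% of all genes in mutants and the 28.7% of all genes that rose in wild types, with medians of -0.10 and -0.07. Of those that rose, 3 passed the filter only through exposed libraries in each line, ciita and ifngr1 among them. The calls of these 3 with arsenite are no independent result. Under total-count scaling 16 rose in mutants, 17 rose in wild types and 0 fell in either. Over all 16389 genes, that scaling called 9842 higher and 1962 lower in mutants, and 9740 higher and 1313 lower in wild types. ciita, the transactivator of class II genes, rose by 4.11 in mutants (edgeR adjusted p = 0.00039) and by 3.85 in wild types (adjusted p = 0.00042). ifngr1, an interferon-gamma receptor chain, rose by 3.40 in mutants (adjusted p = 0.00044) and by 2.08 in wild types (adjusted p = 0.0199). The wild-type call was lost without unexposed replicate 3 (1.81, adjusted p = 0.0527) or exposed replicate 3 (1.65, adjusted p = 0.0683), and the change was 3.59 without unexposed replicate 1. SOCS1, an inhibitor of JAK and STAT signalling, fell by 2.12 in mutants (adjusted p = 0.0093) and by 1.6 in wild types (adjusted p = 0.0464). The mutant call was lost without unexposed mutant replicate 1 (-1.32, adjusted p = 0.0712), and the wild-type call in 10 of the 20 fits that left out 1 library (adjusted p up to 0.104 without exposed replicate 4). The kinase JAK2 fell by 0.67 in mutants (adjusted p = 1.7e-06) and by 0.43 in wild types (adjusted p = 0.00044), and stat2, a transducer of type I interferon signals, by 0.61 (adjusted p = 0.00029) and 0.38 (adjusted p = 0.016). Without unexposed wild-type replicate 2 the wild-type value of stat2 was -0.27 (adjusted p = 0.0678), and total-count scaling turned the sign of both genes in both lines. NFYB, a subunit of the NF-Y factor that binds MHC promoters, rose by 0.52 in mutants (adjusted p = 1.1e-05) and by 0.38 in wild types (adjusted p = 0.00047).

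Of 17 tested interferon-stimulated genes, 6 rose and 2 fell in mutants, where 31.5% and 30.3% of all genes tested did, and 8 rose and 2 fell in wild types, where 28.7% and 24.6% did. In mutants 2 rose without exposed replicate 2 or unexposed replicate 3, 3 rose without exposed replicate 3 or unexposed replicate 1 or 5, and 4 fell without unexposed replicate 2. In wild types 5 rose without exposed replicate 3 or unexposed replicate 4 or 5, and 1 fell without unexposed replicate 1. Under total-count scaling 13 rose and 1 fell in each line. Over all 16389 genes, that scaling called 9842 higher and 1962 lower in mutants, and 9740 higher and 1313 lower in wild types. isg15, a ubiquitin-like interferon-stimulated gene, had 18.1, 49.5, 55.7, 39.4 and 12.8 CPM in exposed mutants and 31.7, 52.0, 79.1, 40.7 and 1.93 CPM in exposed wild types, against means of 1.4 CPM in unexposed mutants and 1.15 CPM in unexposed wild types. Its change was 4.61 in mutants (edgeR adjusted p = 3.3e-05), or 5.91 without unexposed mutant replicate 5, and 5.15 in wild types (adjusted p = 2.2e-05). ifit16 fell by 5.04 in mutants (adjusted p = 1.7e-10) and by 2.03 in wild types (adjusted p = 8.7e-06), a difference of responses of -3.01 (adjusted p = 0.00052), where 2.67% of all genes tested were called lower. isg20, an exonuclease gene, rose by 1.5 in mutants (adjusted p = 7.2e-08) and by 0.86 in wild types (adjusted p = 0.00011). ifit8 had 150 counts in exposed mutants against 0 in exposed wild types, at least 35.8-fold higher over the group floor of 3 counts (edgeR adjusted p = 4.1e-05), and 45 counts in unexposed mutants against 3 in unexposed wild types. ifit8 passed the filter only through mutant libraries, so this call is no independent result.

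Within an exposed group, the same library was often the highest or the lowest for these genes. Among the exposed wild types, replicate 3 had the highest level of 7 of the 8 genes and replicate 5 the lowest of 7. Among the exposed mutants, replicate 2 was highest for 6 of the 8 and replicate 1 lowest for 6. How often these libraries were highest or lowest over all genes tested was not counted. Exposed wild-type replicate 5 also had the highest hepatocyte sum of its group (178500 CPM) and the lowest TMM factor (1.062). The labels do not say what sets these pools apart, and the cause was not tested. Beside the changes stand the following markers of other cells.

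**Figure D4:**
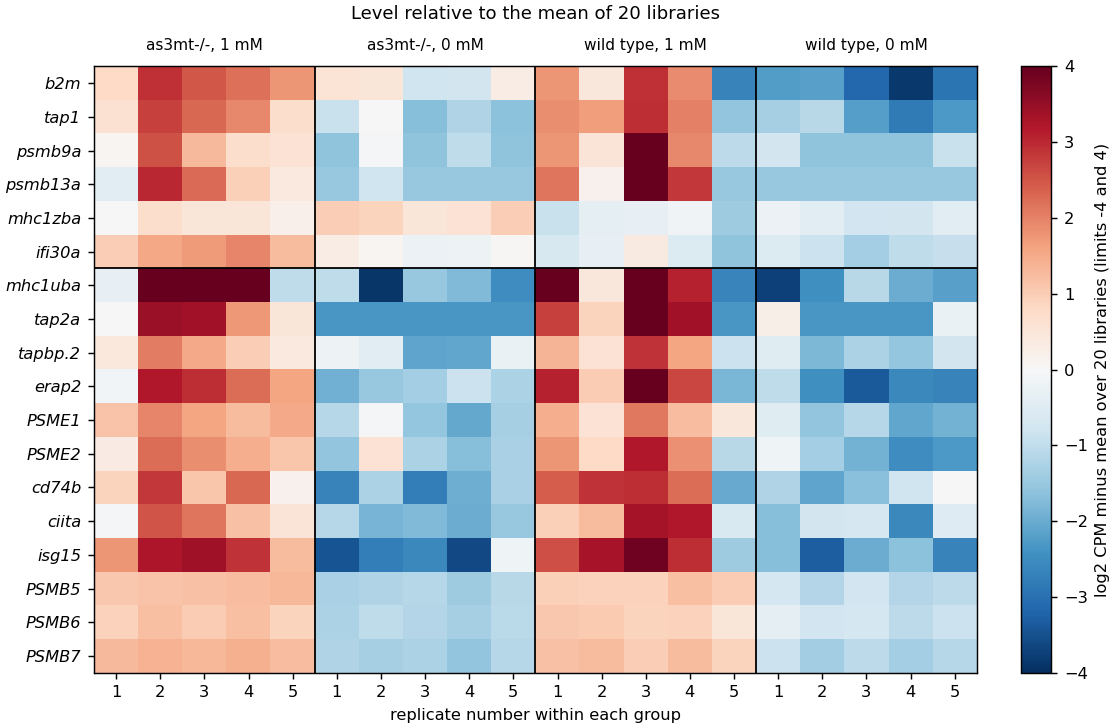
Colour gives log2 CPM minus the mean of the 20 libraries for each gene, with libraries in columns by group and replicate and the 6 tested genes of the set, then 12 related genes, in rows. Exposed wild-type replicate 5 is blue, below the mean, for b2m, tap1 and the immunoproteasome rows but red for PSMB5, PSMB6 and PSMB7, and mhc1zba and ifi30a differ between the mutant and the wild-type columns.

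The 26 macrophage genes summed to 120 to 180 CPM in exposed mutants, 127 to 297 in unexposed mutants, 154 to 205 in exposed wild types and 156 to 667 in unexposed wild types. Of 21 tested, 2 rose and 5 fell in mutants with arsenite, where 31.5% and 30.3% of all genes tested did, and 1 rose and 8 fell in wild types, where 28.7% and 24.6% did. cd68, at 126 to 152 CPM in the group means, made up most of the mean sum in each group. The more specific marco averaged 2.89 CPM in exposed mutants, 5.27 in unexposed mutants, 2.05 in exposed wild types and 4.83 in unexposed wild types. MFAP4 (ENSDARG00000090557) averaged 2.04, 28.05, 1.86 and 97.5 CPM in the same order of groups. The last of these means may lean on 1 library: the macrophage sum was 667 CPM in unexposed wild-type replicate 1, and 156 to 190 CPM in the other unexposed wild types. ctss2.2 went the other way, at 7.23, 3.22, 9.04 and 2.71 CPM in that order. The 22 lymphocyte genes summed to 1.86 to 2.54 CPM in exposed mutants, 1.05 to 1.84 in unexposed mutants, 0.928 to 1.36 in exposed wild types and 1.3 to 2.46 in unexposed wild types. The sums of the 2 mutant groups did not overlap. Of 3 tested, 2 rose and 0 fell with arsenite in mutants, where 31.5% and 30.3% of all genes tested did. In wild types 0 rose and 0 fell, where 28.7% and 24.6% of all genes tested did. With arsenite, 1 was higher in mutants than in wild types, where 7.68% of all genes tested were. cd247l averaged 0.895 CPM in exposed mutants, 0.193 in unexposed mutants, 0.282 in exposed wild types and 0.176 in unexposed wild types. RAG2 averaged 0.547, 0.0634, 0.299 and 0.152 CPM in that order, and CXCR4 (ENSDARG00000041959) 0.155, 0.181, 0.242 and 0.274 CPM. PAX5, cd37 and nkl.2 were at 0 in all 20 libraries. The 9 neutrophil genes summed to 18.8 to 22.8 CPM in exposed mutants, 20.9 to 30.2 in unexposed mutants, 21.1 to 26.6 in exposed wild types and 22 to 30.7 in unexposed wild types. Exocrine pancreas genes, a sign of neighbouring tissue in the dissection, summed to 17.9 to 836 CPM in exposed mutants, 131 to 1835 in unexposed mutants, 18.5 to 61.7 in exposed wild types and 35.8 to 267 in unexposed wild types. The 17 endothelial genes summed to a median of 126 CPM in exposed mutants, 327 in unexposed mutants, 169 in exposed wild types and 335 in unexposed wild types, with no overlap between exposed and unexposed libraries of a line. The 14 intestine genes summed to 788 to 1139 CPM in exposed mutants, 3180 to 5212 in unexposed mutants, 1196 to 1664 in exposed wild types and 3767 to 5935 in unexposed wild types, again with no overlap. apoa4b.1 made up most of these sums, averaging 560, 3852, 1111 and 4093 CPM in that order. ANPEP (ENSDARG00000103878) went the other way, at 204, 12.0, 80.3 and 8.14 CPM. Of 8 tested, 1 rose and 3 fell with arsenite in each line. Of all genes tested, 31.5% rose and 30.3% fell in mutants, and 28.7% and 24.6% in wild types. Erythroid and thrombocyte genes summed to 93.2 to 160 CPM in exposed mutants, 144 to 207 in unexposed mutants, 66.1 to 190 in exposed wild types and 73.4 to 224 in unexposed wild types. The part of any of these cells in the changes above was not tested.

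The genes whose centred log2 CPM profile over the 20 libraries lay nearest to each tested member were partly members of the same routes. Only tested genes with a symbol were compared. By root mean square difference, tap1 was the nearest of these to b2m (0.87), PSME2 the nearest to tap1 (0.50), and psmb9a and psmb13a were each other's nearest (0.51). For mhc1zba the nearest were caspa (0.34) and ripk3 (0.36), and for ifi30a CD151 (0.37) and SCOC (0.40). caspa averaged 10.1 CPM in exposed mutants, 12.1 in unexposed mutants, 6.40 in exposed wild types and 6.32 in unexposed wild types. CD151 averaged 29.3 CPM in exposed mutants, 11 in unexposed mutants, 9.47 in exposed wild types and 5.54 in unexposed wild types. Ranked by Pearson correlation instead, 0 of the 3 nearest genes were shared for b2m, 1 of 3 for mhc1zba, psmb9a and psmb13a, and 2 of 3 for tap1 and ifi30a, so the neighbours depend on the measure. These distances describe 20 libraries that share 4 conditions, and for b2m, psmb9a and psmb13a they depend on the few counts of the unexposed libraries.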

How the data were processed

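Gene counts per library were deposited by the authors as whole numbers for 20 libraries, with no normalization. Per the submitters' processing notes, FastQC 0.11.5 and Trimmomatic 0.36 were used and the build was GRCz10. No source used here names the aligner or the counter. The 8 genes and all gene lists were chosen with earlier results of these data known. Symbols were assigned to 26269 of 32105 identifiers from gene name tables, and 298 of 379 list entries matched.

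Counts were fitted in edgeR 4.0.16 (R 4.3.3) with TMM scaling, the filterByExpr filter (16389 genes) and 4 group means over the 20 libraries, with a quasi-likelihood F test, 2-sided, and an adjusted p under 0.05. The common biological coefficient of variation was 0.282. The script recovered known changes in tests on simulated data. Ratios were tested by exact permutation (scipy 1.17.1). Alternatives were DESeq2 1.42.0, total-count scaling, other filters, the replicate block and leaving out each library. Pools are the replicates, and the labels do not say whether they came from separate clutches, so p-values measure the spread between pools. Besides the members and PSMB5, PSMB6 and PSMB7, named genes were up to 4 called genes per list, ranked by adjusted p over the comparisons, leading cell type markers and the nearest profiles. CANX, PDIA3, calr3b, PSMB10, PSME1, PSME2, PSME4, SOCS1, ctss2.1, ctss2.2, ifngr1, mhc1uba, mhc1zca, mhc1zfa, psmb12, tap2a, tapbp.2 and marco were added after their values were seen.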

Additional observations from a re-analysis of the deposited data

Results flagged for a closer look

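A single library stood far from the other 4 of its group in 7 of 44 groups of 5 examined, where chance gives about 1 in 20 for continuous values. All 7 were in genes of few counts, where that rate need not hold. In exposed wild-type replicate 3 psmb8a stood at 3.05 CPM, psmb9a at 2.65 CPM and psmb13a at 4.31 CPM, against at most 0.276, 0.590 and 1.08 CPM in the other 4 libraries. In unexposed mutant replicate 2 psmb9a stood at 0.108 CPM and psmb13a at 0.0361 CPM (1 count), with the other 4 libraries at or below 0.0287 CPM for psmb9a and at 0 for psmb13a. For cd74a, exposed mutant replicate 3 stood at 0.401 CPM against 0.0824 to 0.164 CPM, and unexposed mutant replicate 1 at 0.236 CPM against 0.0287 to 0.0721 CPM.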

How the results depend on the processing

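Of the log2 changes of the 6 tested genes of the set under the alternatives, 806 counted as unchanged, 14 reversed, 7 newly passed and 1 no longer passed. Unchanged meant the same direction and side of the threshold. For the line and response differences of b2m and mhc1zba, which were not tested, it meant only a shift below the gene's pooled SD of log2 CPM within groups. Among the genes of the related lists, leaving out 1 library ended 37 calls. The cause was not tested for any of these.

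Requiring a mean of at least 10 CPM left 6564 genes, with 5066 called for arsenite in mutants, 4601 in wild types, and 1987 and 1107 between the lines with and without arsenite. Total-count scaling called 5470 genes between the lines with arsenite. For the difference of responses DESeq2 called 1123 genes, against 652, and leaving out 1 library gave 383 to 793. Total-count scaling turned mhc1zba with arsenite to 0.444 in mutants and 0.679 in wild types, and tap1 between the exposed lines to 0.235. That tap1 difference was 0.002 in a fit of the 2 groups compared.

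Leaving out 1 library gave -0.183 to 0.054 for mhc1zba with arsenite in wild types, and -0.363 to 0.387 for tap1, -1.795 to 0.141 for psmb9a and -2.052 to 0.036 for psmb13a between the exposed lines. For psmb9a between the unexposed lines it gave -0.702 to 1.259. For psmb9a over PSMB6 it gave 0.553 to 1.373 with arsenite in mutants, 1.181 to 2.597 in wild types and -1.187 to 0.229 between the exposed lines. For psmb13a over PSMB7 it gave 0.9 to 2.962 with arsenite in wild types, -1.562 to 0.5 between the exposed lines and -0.048 to 0.452 between the unexposed lines, and for psmb8a over PSMB5 -1.477 to 0.511 between the exposed lines. With 5 counts added, psmb8a over PSMB5 differed by -2.308 in mutants, psmb9a over PSMB6 by -1.273 in mutants and -0.224 in wild types, and psmb13a over PSMB7 by -1.435 and -0.535.

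Replicate numbers recur in each group. Correlations of same-numbered libraries ran from -0.0796 to 0.398 over all pairs of groups, and within a line from 0.0466 to 0.189 in mutants and 0.0155 to 0.205 in wild types, where 4 of 5 libraries of each group correlated best with their own number. They were not taken as pairs, since not every pair passed 0.1 and the labels do not say what a number marks. This cutoff does not show that the libraries were unpaired, and no paired form of the ratio tests was run. With the replicate block, 10317 genes were called for arsenite in mutants and 8989 in wild types, 896 genes for the difference of responses, and the tap1 difference between the exposed lines was 0.04. Genes under a few CPM, above all psmb8a, psmb13a and cd74a, are limited by their counts.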
